A study of Arabidopsis thaliana with 6 samples.

Results

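STZ and ORA47 are genes for stress-responsive transcription factors of Arabidopsis thaliana, and the transcript of each is read by 1 probe set of the array, made up of several short oligonucleotides. They are 2 of the 13513 probe sets whose annotation names 1 gene, out of 22746 on the array after controls were left out. Both were chosen by their p53 minus WT difference on these same arrays, so that difference is described here without a test. Human p53 under the constitutive cauliflower mosaic virus 35S promoter was expressed in the Columbia ecotype (Col-0), and RNA of whole seedlings was compared with that of wild type (WT) Col-0 seedlings of the same age, 10 days. The GeneChip Arabidopsis ATH1 array was used, with 3 arrays of WT and 3 of 35S:P53 transgenic seedlings (p53). The labels describe the replicates as coming from separate biological experiments. No source used here says which transgenic line was put on the arrays, and the WT seedlings are not described as carrying an empty vector. In whole seedlings fewer cells of a type and less RNA per cell cannot be told apart.

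STZ (AT1G27730, also called ZAT10) encodes a zinc finger protein of the C2H2 type that binds DNA and mainly represses transcription through an EAR motif. Its transcript is induced by salt, cold, drought, strong light, wounding and reactive oxygen, often within minutes. ORA47 (AT1G74930) encodes a protein of the AP2/ERF family, in the DREB branch, that activates genes of jasmonate synthesis and is itself induced quickly by jasmonate and wounding. Jasmonate is the lipid hormone of the wound response. Both genes lie on chromosome 1 and share no sequence family. No sequence of either gene was used here.

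The table holds log values that had been centred, for each probe set, on the median of the 6 arrays. They are read here as log2, although no source used here states the base. A value is therefore a difference from the middle of the 6 arrays and not an expression level, and levels of different genes were not compared. Where all p53 arrays lie below all WT arrays, the zero lies midway between the lowest WT array and the highest p53 array, so these values mirror each other by construction. For a gene higher in p53 the same holds for the highest WT and the lowest p53 array.

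The STZ transcript was lower on every p53 array than on every WT array. STZ had values of 0.92, 0.71 and 1.61 on WT arrays 1, 2 and 3. On p53 arrays 1, 2 and 3 it had values of -2.25, -1.62 and -0.71. The groups did not overlap. WT array 3 was the highest and p53 array 1 the lowest, and the gap between the closest arrays, WT 2 and p53 3, was 1.42. The mean was 1.08 ± 0.47 (SD, n = 3) in WT and -1.53 ± 0.77 (SD, n = 3) in p53 seedlings. The difference was -2.61 on the log2 scale with a standard error of 0.40, or 6.08-fold lower.

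The ORA47 transcript was lower still relative to WT. It had values of 1.33, 1.30 and 2.11 on WT arrays 1, 2 and 3, and of -2.55, -1.30 and -1.76 on p53 arrays 1, 2 and 3. Here too the groups did not overlap, WT array 3 was the highest and p53 array 1 the lowest. The closest arrays were WT 2 and p53 2, and they lay 2.61 apart, more than the spread within either genotype (0.81 in WT and 1.24 in p53 seedlings). For STZ the gap of 1.42 was wider than the WT range of 0.90 and narrower than the p53 range of 1.54. The ORA47 mean was 1.58 ± 0.46 (SD, n = 3) in WT and -1.87 ± 0.63 (SD, n = 3) in p53 seedlings. The difference was -3.45 on the log2 scale with a standard error of 0.35, or 10.95-fold lower. Among the 22746 probe sets 19.4% had all p53 arrays below all WT arrays, so the lack of overlap by itself does not set the pair apart. Counted from the lowest, the differences ranked 11 for ORA47 and 35 for STZ among all probe sets, as a description of genes chosen for it.

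**Figure D1:**
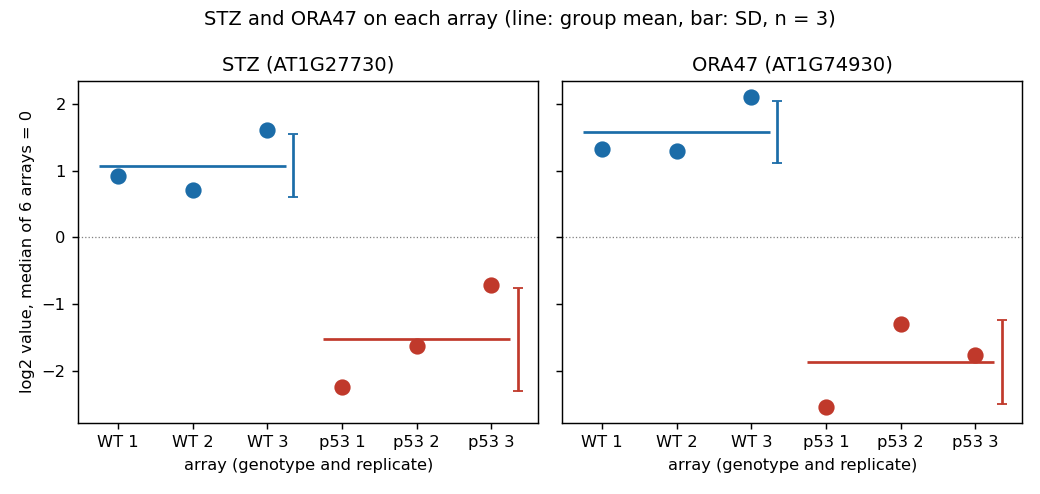
Each point is the log2 value of STZ (left) or ORA47 (right) on 1 array, with the median of the 6 arrays at 0, and lines and bars give the mean and SD of 3 arrays. All WT points lie above 0 and all p53 points below it, with WT 3 highest and p53 1 lowest for both genes.

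Compared by replicate number, p53 minus WT was -3.17, -2.33 and -2.32 for STZ in replicates 1, 2 and 3. For ORA47 it was -3.87, -2.61 and -3.88. ORA47 was the more reduced of the genes in each replicate, by 0.71, 0.27 and 1.56 on the log2 scale. The excess was thus smallest in replicate 2 and largest in replicate 3, and its mean was 0.85. Over all 9 combinations of a p53 and a WT array the difference ran from -3.85 to -1.42 for STZ and from -4.66 to -2.61 for ORA47. When a single array was left out, the difference stayed between -3.01 and -2.24 for STZ and between -3.74 and -3.12 for ORA47.

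Both transcripts varied widely between arrays of the same genotype. The pooled SD within genotypes was 0.64 for STZ and 0.55 for ORA47, against a median of 0.14 over all probe sets and of 0.16 over those called lower in p53. It was larger than that of 98.5% of all probe sets for STZ and of 97.7% for ORA47. In WT alone the range was wider than for 98.3% of probe sets for STZ and 97.8% for ORA47. In p53 seedlings alone these shares were 98.5% and 97.3%. The wide spread was thus present in both genotypes.

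The genes moved together between the WT arrays and in part between the p53 arrays. In deviations from the genotype mean, STZ was at -0.16, -0.37 and 0.53 on WT arrays 1, 2 and 3, and ORA47 at -0.26, -0.28 and 0.53. The WT arrays thus stood in the same order for both, with array 3 above the others. For ORA47 WT arrays 1 and 2 lay close together, so the likeness in WT rests mainly on array 3. On p53 arrays 1, 2 and 3 STZ was at -0.72, -0.10 and 0.82, and ORA47 at -0.68, 0.57 and 0.11. Array p53 1 was lowest for both, while p53 3 was highest for STZ and p53 2 for ORA47. Pearson's r of the deviations was 0.67 over the 6 arrays, of which 4 deviations are free if same-numbered arrays are not paired. It is a description and carries no p, since both genes are read from the same 6 hybridizations. It was 0.32 without p53 replicate 1, 0.94 without p53 replicate 2 and 0.93 without p53 replicate 3, so single p53 arrays decided its size. Among all other probe sets 16.0% had an r with STZ at least as high, and 7.48% had one with ORA47, so the covariation of the pair was not rare on these arrays. The differences of same-numbered arrays, a paired view with 3 points, had an r of 0.48.

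**Figure D2:**
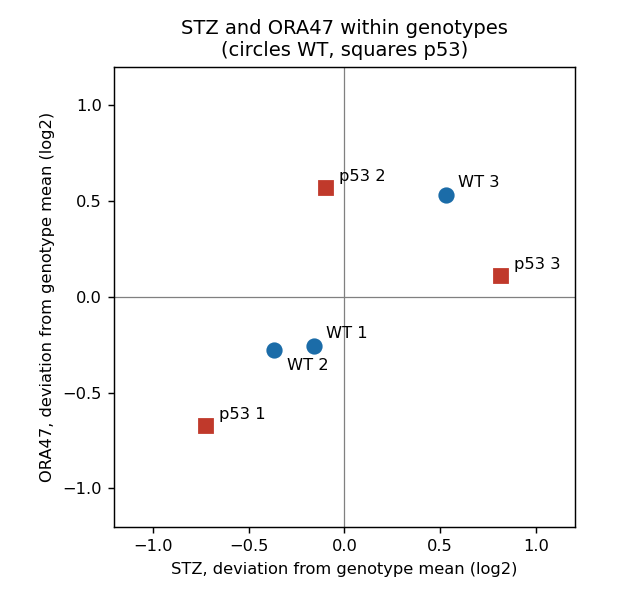
Each point is 1 array, placed by the deviation of STZ (horizontal axis) and of ORA47 (vertical axis) from its genotype mean on the log2 scale. WT 3 lies high and p53 1 low for both genes, while p53 2 and p53 3 lie apart at -0.10 and 0.82 for STZ and at 0.57 and 0.11 for ORA47.

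The order of arrays was compared with that of the other transcripts lowered in p53 seedlings. Differential expression was tested across all probe sets with limma, a linear model that steadies each probe set's variance with that of the others, and p-values were adjusted by Benjamini-Hochberg. At an adjusted p under 0.05, 2010 probe sets (8.84% of those tested) were lower and 1490 (6.55%) were higher in p53 seedlings. Of the 2010, 40.0% had WT array 3 as the highest WT array, as STZ and ORA47 did, and 29.9% had p53 array 1 as the lowest p53 array. Both held for 309 of them (15.4%). The array that was lowest most often was p53 3, for 996 of 2010 (49.6%), and for neither STZ nor ORA47 was it the lowest.

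The genes whose values lay nearest to those of STZ and ORA47 were looked up next, by the root mean square distance over the 6 arrays on the log2 scale. The distance was taken to the 13512 other probe sets that name 1 gene. It uses the genotype difference, so the p53 minus WT values of these genes are given with no test. Nearest to STZ was AT4G27280, at a distance of 0.20 against a median of 1.42 over all these probe sets. AT4G27280 had values of 0.64, 0.63 and 1.29 on the WT arrays and -2.45, -1.63 and -0.63 on the p53 arrays, so all 6 arrays stood close to those of STZ. AT2G41640 followed at 0.21 and AT1G72920 at 0.41. CML38, which encodes a calmodulin-like protein that binds calcium, was at 0.42, HIS1-3, a linker histone, at 0.45, and AT3G04640 at 0.48. For each of these 6 genes WT array 3 was the highest WT array. Within genotypes the r with STZ ran from 0.71 for HIS1-3 to 0.98 for AT4G27280. The distance also uses the variation within genotypes, so this r and the shared array order are favoured by the choice and are no separate support.

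ORA47 had no neighbour as close, but distances from it were larger in general, with a median of 1.79 over the other probe sets that name 1 gene. AT1G22160 was at a distance of 0.49, GLC at 0.53, HIS1-3 at 0.57, STZ itself at 0.59, the dehydrin gene LTI30 at 0.59 and AT2G41640 at 0.60. The first of these had values of 1.97, 1.47 and 2.13 on the WT arrays and -1.60, -1.47 and -1.55 on the p53 arrays, without the low value of ORA47 on p53 1. Within genotypes the r with ORA47 was 0.55 for AT1G22160 and 0.69 for AT2G41640, but -0.04 for HIS1-3, -0.01 for GLC and 0.085 for LTI30. The latter 3 genes were therefore near to ORA47 through the genotype difference rather than through the variation between replicates. STZ ranked 4 from ORA47, and ORA47 ranked 14 from STZ. HIS1-3 and AT2G41640 were among the nearest 6 of both. When likeness was measured by Pearson's r over the 6 arrays, only probe sets with an SD over the arrays of at least 0.5 times that of the gene were ranked, 485 for STZ and 271 for ORA47. Within these, AT4G27280 and AT2G41640 remained among the nearest 6 of STZ, none of the nearest 6 of ORA47 did, and AR781 came first for ORA47 (r = 0.996).

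**Figure D3:**
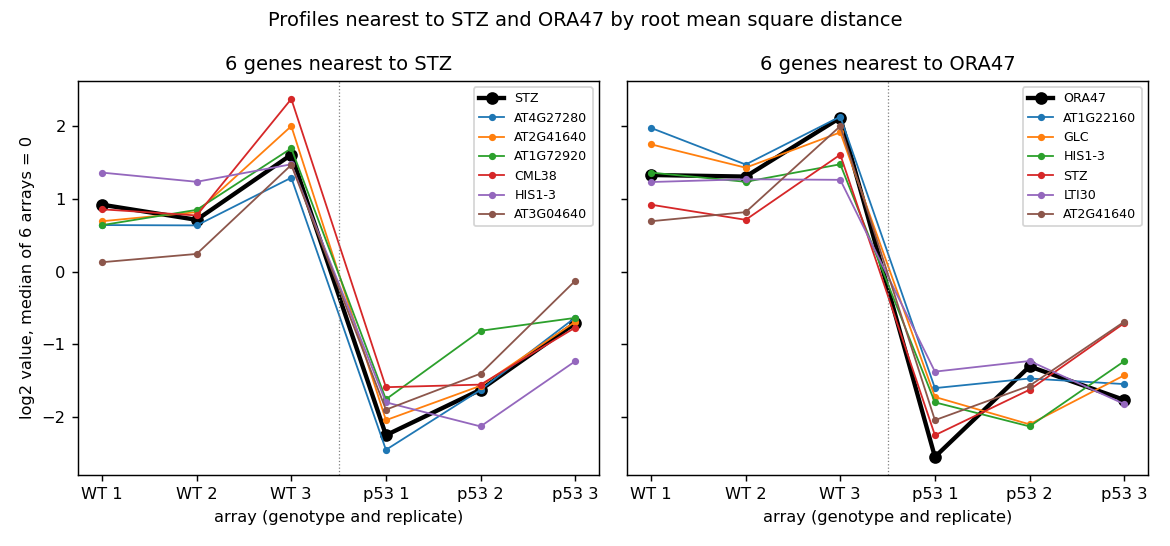
Log2 values, with the median of the 6 arrays at 0, of STZ (left, black) and ORA47 (right, black) and of the 6 genes nearest to each, joined across the arrays only to guide the eye. The curves of AT4G27280 and AT2G41640 run closest to STZ, while ORA47 falls below all 6 of its nearest genes on p53 1, at -2.55.

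STZ belongs to a group of C2H2 zinc finger genes, of which 16 others were listed by locus and 5 had a probe set that names them alone. Of these 5, 1 passed the test, as lower, and 4 missed it, with a median difference of -0.09 against -0.01 over all probe sets. As 8.84% of all probe sets were lower and 6.55% higher, 5 genes allow no statement on the group. AT2G28200 had values of 0.70, 0.89 and 0.28 on the WT arrays and -0.45, -0.28 and -0.58 on the p53 arrays, with no overlap. It fell by 1.06 in log2 units (standard error 0.17, adjusted p = 0.00852 from limma). Unlike STZ, it was not highest on WT array 3, and its deviations within genotypes ran against those of STZ (r = -0.66). With the methods' t-test, run in place of limma with the same adjustment, the adjusted p of AT2G28200 was 0.0708, and its lowest value over the alternatives was 0.00233. Named genes of the lists and neighbours that lost their call in this way, and TINY2, were also set against a cut without adjustment. This was an unadjusted p under 0.05 by the methods' t-test and a fold above 2. AT2G28200, CML38, WRKY6 and TINY2 passed it, while OPCL1 and AT1G27690 did not reach the fold. The measured cold and drought genes and ALDH10A8 kept their adjusted call with a fold above 2, so they pass this cut as well. AT3G60580 had a difference of 0.52 (adjusted p = 0.112) and passed without p53 replicate 2 (0.0242) and with array weights (0.0240), while AT5G03510, AT2G45120 and AT3G53600 had differences of -0.17, -0.09 and 0.06. ZAT12, AZF1, AZF2 and ZAT6, the best known relatives, were not analysed here.

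None of 8 measured DREB relatives of ORA47, out of 25 listed, passed with limma or with the methods' t-test. Over all probe sets limma called 8.84% lower and 6.55% higher, so 8 genes are too few to set the family apart. The differences of these relatives ran from -0.42 for AT1G44830 (95% confidence interval -0.71 to -0.14, adjusted p = 0.0599 from limma) to 0.24 for AT1G77640, with a median of -0.02. Only AT1G44830 and TINY (listed as tny, difference -0.33, adjusted p = 0.0699 from limma) had an unadjusted p under 0.05. AT1G44830 passed without p53 replicate 3 (adjusted p = 0.0204) and with array weights (0.00441), and TINY with array weights (0.0459). AT1G19210 had a difference of -0.36, with a value of 0.65 on WT array 3 and values from -0.15 to 0.15 on all other arrays. TINY2, a DREB gene outside the list that was named after its values were seen, had values of -0.53, -0.86 and -0.43 on the WT arrays and 1.14, 0.43 and 0.89 on the p53 arrays. It rose by 1.42 (standard error 0.20, adjusted p = 0.00506 from limma), opposite to ORA47. Over the alternatives its adjusted p ran from 0.000602 to 0.0584, and the methods' t-test, which gave the latter, was the alternative that ended the call. The CBF genes and all 19 listed ethylene response factors had no probe set that names them alone and were not analysed here.

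Of 26 listed genes that respond quickly to wounding and touch, 5 were measured. CML38 was lower, WRKY6 was higher and 3 did not pass, against 8.84% lower and 6.55% higher of all probe sets, and so few genes allow no statement on the group. CML38 had values of 0.85, 0.77 and 2.37 on the WT arrays and -1.59, -1.55 and -0.77 on the p53 arrays. It fell by 2.64 (standard error 0.45, adjusted p = 0.0107 from limma), with WT array 3 standing above the other WT arrays more than for STZ or ORA47. As CML38 was also among the genes nearest to STZ, its call is no separate support. Without p53 replicate 1 the adjusted p of CML38 was 0.0514, and by the methods' t-test it was 0.0903, with 0.00196 as the lowest value over the alternatives. WRKY6, a WRKY transcription factor linked to senescence and defence, rose by 1.39 (standard error 0.20, adjusted p = 0.00544 from limma). Over the alternatives the adjusted p of WRKY6 ran from 0.000393 to 0.0611, and the methods' t-test, which gave the latter, was the alternative that ended the call. WRKY53, a WRKY factor of leaf senescence, had values of -1.09 and -1.58 on p53 arrays 1 and 2 but 0.25 on p53 array 3, within the WT range of -0.18 to 0.28. Its difference was -0.90 (adjusted p = 0.232), and -1.43 without p53 replicate 3 (adjusted p = 0.00533), and it passed also with array weights (0.0131). CML37, a calmodulin-like gene, had a difference of 0.05, with 0.99 on WT 3 and 1.36 on p53 3 as its highest values. CML39, listed as AT1G76640, had a difference of 0.03. Within genotypes the r with STZ was 0.82 for CML38, 0.82 for CML37, 0.75 for WRKY53, 0.74 for AT1G76640 and 0.68 for WRKY6. With ORA47 it was 0.59, 0.27, 0.02, 0.03 and -0.03 in the same order.

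Jasmonate genes were of interest beside ORA47, but only 2 of 16 listed genes of synthesis were measured. OPCL1, a ligase that activates precursors of jasmonate, had values of 0.38, 0.14 and 0.73 on the WT arrays and -0.30, -0.14 and -0.18 on the p53 arrays. OPCL1 fell by 0.62 (standard error 0.15, adjusted p = 0.0391 from limma), and its WT arrays stood in the order of STZ and ORA47, with 3 above 1 and 2. Its adjusted p was 0.113 without WT replicate 1, 0.0856 without WT replicate 3, 0.140 without p53 replicate 1, 0.0577 without p53 replicate 3 and 0.139 by the methods' t-test, with 0.00850 as the lowest value over the alternatives. DGL, a lipase gene, had a difference of 0.04 (95% confidence interval -0.27 to 0.35). Within genotypes OPCL1 had an r of 0.75 with ORA47 and of 0.64 with STZ, and DGL of -0.61 and -0.16.

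None of 5 measured genes of jasmonate signalling and response, out of 24 listed, passed with limma or with the methods' t-test, and 2 of them, MYC3 and JMT, had an unadjusted p under 0.05. Limma called 8.84% of all probe sets lower and 6.55% higher, so 5 genes allow no statement on the group. MYC3 and MYC4, basic helix-loop-helix factors of the jasmonate response, had differences of -0.46 (adjusted p = 0.0531) and -0.45 (adjusted p = 0.192). Without p53 replicate 2 both passed, with differences of -0.59 (adjusted p = 0.0113) and -0.66 (adjusted p = 0.0268). MYC3 passed also with quantile normalization (0.0448) and with array weights (0.00707), and MYC4 with array weights (0.0476). JMT, the methyltransferase that makes methyl jasmonate, had a difference of 0.69 (adjusted p = 0.107). The differences of the thionin gene THI2.1 and the defensin gene PDF1.2 were 1.15 and -0.16. PDF1.2 varied more within genotypes than STZ or ORA47, from -1.27 to 1.14 in WT and from -2.10 to 1.19 in p53 seedlings, and its interval of -2.33 to 2.02 leaves large changes in either direction undetected at this number of arrays. The 25 listed genes of abscisic acid and the 10 of antioxidant enzymes were not measured by a probe set that names them alone.

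The cold and drought genes were lower in the same seedlings, but their replicates behaved differently from those of STZ and ORA47. All 4 measured genes of 12 listed fell, against 8.84% lower of all probe sets, and this list was drawn up with their earlier result known. On the WT arrays COR15A, COR15B, COR47 and LTI30 had ranges of only 0.06, 0.01, 0.04 and 0.04, against 0.90 for STZ and 0.81 for ORA47. Each of these cold and drought genes was lowest on p53 array 3, where STZ was at its highest among p53 arrays. That array was also the lowest p53 array for 49.6% of all probe sets called lower. For these 4 genes the r with STZ within genotypes ran from -0.84 for COR15B to -0.67 for LTI30, and that with ORA47 from -0.57 to 0.085. With such small WT ranges, these r rest mainly on the p53 arrays. The clock gene GI (GIGANTEA), 1 of 14 listed clock genes measured, had a difference of -0.26 (adjusted p = 0.271 from limma).

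Over all lists 34 of 213 genes were measured, of which 7 were lower, 1 was higher and 26 did not pass. Without the cold and drought list 3 of 30 were lower and 1 was higher, against 8.84% and 6.55% of all probe sets, and their median difference was -0.04 against -0.01. Most measured members of the families and pathways of STZ and ORA47 missed the threshold, as did most of all probe sets, so this does not set them apart. Markers of tissue composition were few, with 4 measured of 26 listed in all. RCA, the Rubisco activase of green tissue, had a difference of 0.12, the root genes PYK10 and EXPA7 had -0.03 and -0.02, and FAMA (listed as FMA), a guard cell factor, had -0.10. None of these passed with limma, none had an unadjusted p under 0.05, and the widest interval, for FAMA, ran from -0.39 to 0.20. PYK10 had an r of 0.80 with STZ and 0.89 with ORA47 within genotypes, on values that ran only from -0.07 to 0.10. Its part in the variation of STZ and ORA47 was not tested. No flower or seed marker was measured. Since only differences between arrays are left, the seedling label could not be checked from levels.

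**Figure D4:**
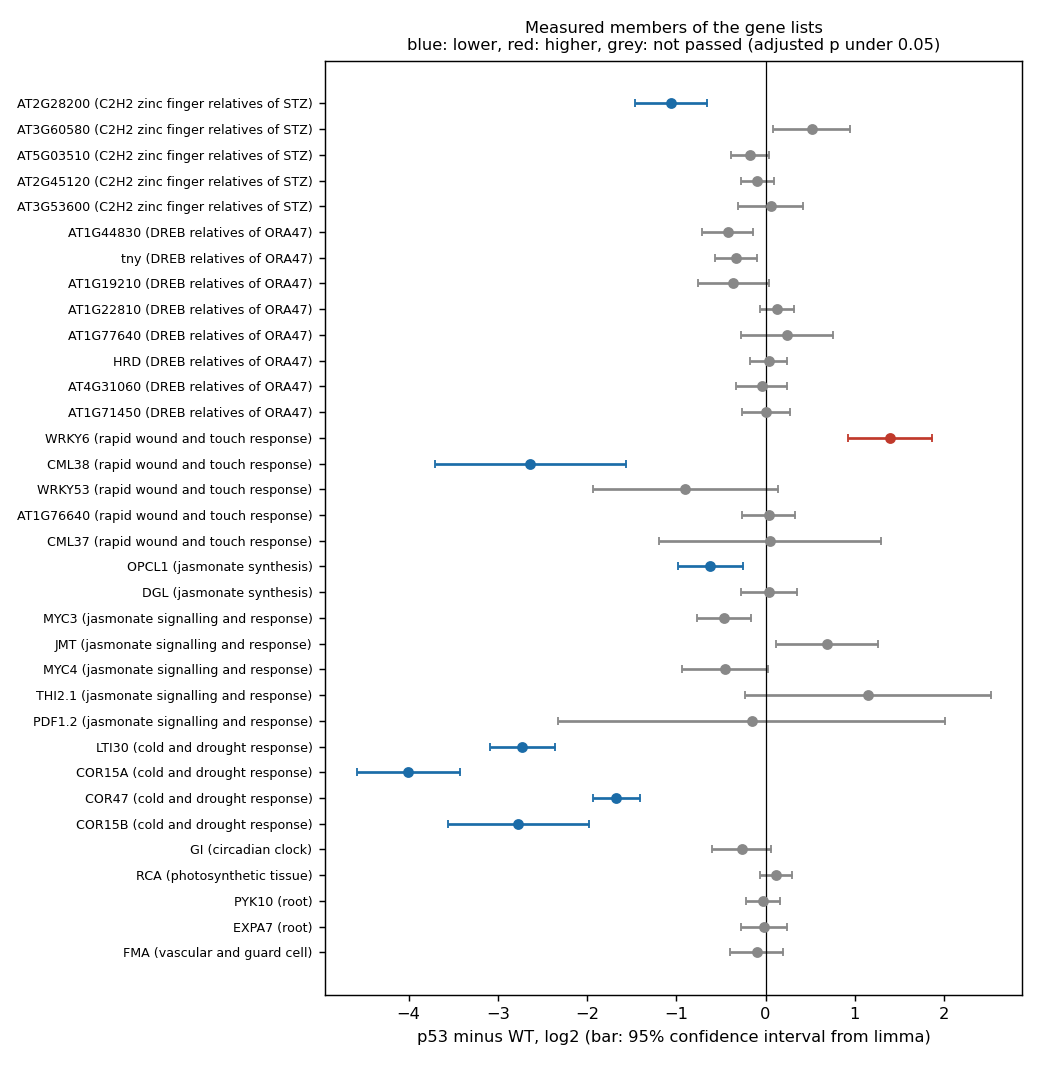
Each point is the p53 minus WT difference on the log2 scale of 1 measured list member, with its 95% confidence interval from limma, coloured by whether its adjusted p was under 0.05. The 7 members that were lower include all 4 cold and drought genes, whose intervals lie below -1, and WRKY6 at 1.39 is the 1 member that was higher.

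The values of genes beside STZ and ORA47 on chromosome 1 are given next, and an effect of position was not tested. Over all probe sets 8.84% were called lower, and 19.4% had all p53 arrays below all WT arrays. Gene order was taken from the reference annotation, and the nearest measured genes on each side were used. ALDH10A8, an aldehyde dehydrogenase gene, precedes ORA47 directly. It had values of 0.56, 0.40 and 0.53 on the WT arrays and -0.71, -0.40 and -0.69 on the p53 arrays, with no overlap. ALDH10A8 fell by 1.10 (standard error 0.11, adjusted p = 0.00154 from limma), and passed under all 13 alternatives (adjusted p up to 0.0256). It dropped less than ORA47, whose difference was -3.45. Like ORA47 it was lowest on p53 1, but barely below p53 3 (-0.71 against -0.69). Its highest WT array was WT 1, unlike that of ORA47. AT1G74940, on the other side, had a difference of -0.48 (adjusted p = 0.0649), and passed without p53 replicate 2 (0.00698) and with array weights (0.008). AT1G74910 and AT1G74990 had differences of -0.20 and -0.01. AT1G74929 is annotated within ORA47 and has no probe set of its own here, so a contribution of it to the ORA47 signal cannot be told apart.

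Around STZ the measured genes lay 3 to 7 genes away. AT1G27690 fell by 0.44 (standard error 0.12, adjusted p = 0.0459 from limma), but its adjusted p was between 0.0822 and 0.157 without WT replicate 1, 2 or 3 or without p53 replicate 1 or 3, 0.0579 with quantile normalization, 0.0544 with each array centred on its median and 0.124 by the methods' t-test. The lowest value over the alternatives was 0.00543. AT1G27700, SAT32 and AT1G27790 had differences of -0.06, -0.28 and 0.01 and did not pass.

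**Figure D5:**
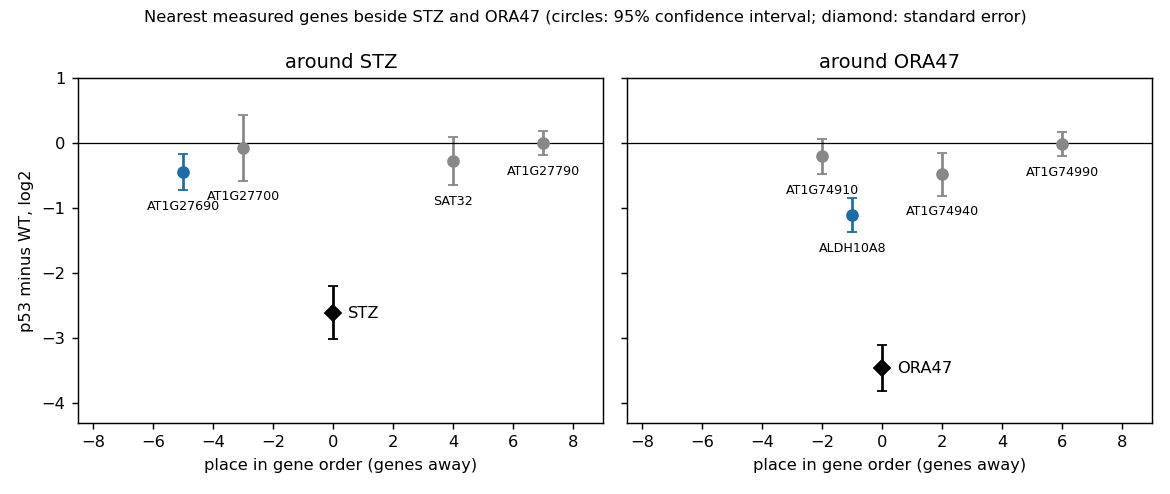
The p53 minus WT difference on the log2 scale of the nearest measured genes (circles, with 95% confidence intervals) is plotted by their place in gene order from STZ (left) and ORA47 (right), shown as diamonds with standard errors. ALDH10A8, directly before ORA47, lies at -1.10, and no measured gene beside STZ lies below -0.44.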

How the data were processed

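Total RNA of 6 samples was measured on ATH1 GeneChip arrays after labelling with an RNA amplification kit. The deposited log2 values, 1 table of 22810 probe sets, were summarized by the authors with PLIER per the labels, and GeneSpring is the software their methods give for statistics. Each row of the table has a median of 0 within 5.0e-07, so the median of the 6 arrays had been subtracted, and no level, detection call or signal over background is left. Background correction, normalization between arrays and the log base were not given in the sources used here. After 64 control probe sets were left out, 22746 were tested, of which 13513 carry 1 gene name, 503 carry more than 1 and 8730 carry no listed gene. For names and gene order only, 13436 of the 13513 could be looked up by gene ID in the TAIR10.1 annotation of RefSeq. The upper quartiles of the arrays lay between 0.09 and 0.16, the lower ones between -0.15 and -0.08, and no pair of arrays was identical. Precision is set by the 3 arrays of each genotype.

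The p53 arrays were set against the WT arrays in R 4.3.3 by lmFit and eBayes of limma 3.58.1 without a covariate, with Benjamini-Hochberg adjustment over 22746 probe sets and a threshold of 0.05. Adjusted p-values refer to this fit except where the methods' t-test is named. The study names a t-test with an unadjusted p and a minimum fold as its cut, and no adjustment. At an unadjusted p under 0.05 and a fold above 2 that test called 576 probe sets lower and 584 higher, and after Benjamini-Hochberg adjustment, with no fold, 743 and 668. Calls described as lost with the methods' t-test are by the adjusted p. No exact permutation test was run, since the smallest two-sided p it allows with 3 arrays a genotype is 0.10. The members, gene lists and tests were chosen with earlier results of these data known. Named are STZ, ORA47, the 6 nearest genes by distance, the 4 list members of smallest p (per list) and the nearest 2 measured genes on each side, while other list members are given as values. The steps were tested on simulated data.

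WT and p53 samples carry the same replicate numbers. Deviations of same-numbered arrays from the genotype means correlated with r = 0.12, 0.27 and 0.34 over all probe sets, each above 0.1. Arrays of 1 number were therefore taken as pairs in an alternative fit. The study's methods name no block, so the block was an alternative. The main fit and the r within genotypes leave this pairing out. Alternatives were quantile normalization, centring of each array, robust eBayes, the methods' t-test, a replicate block, array weights, a fit on probe sets that name 1 gene and leaving out each array.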

Additional observations from a re-analysis of the deposited data

How the results depend on the processing

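The direction of STZ and ORA47 is set by their choice and says nothing of stability. Of the alternatives that can move the size of a difference, quantile normalization moved that of ORA47, to -4.15, by more than the SD within genotypes. Without single arrays the correlation of the pair within genotypes ran from 0.32 to 0.94. With the replicate block 2153 probe sets were lower and 1725 higher, and the block changed no call of the 35 named genes tested. Of 22746 probe sets, the counts of 2010 lower and 1490 higher became 743 and 668 with the methods' t-test and 3598 and 2978 with array weights. The fit on probe sets that name 1 gene called 1169 lower and 764 higher of only 13513 tested, so these counts cannot be set directly beside the others. Without single arrays the counts over all probe sets ran from 899 to 2385 lower and from 722 to 1961 higher. Of the list members 4 were lower and 0 higher with the methods' t-test, and 12 and 2 with array weights. Without single arrays 5 to 9 were lower and 1 to 2 higher. The cause of these shifts was not tested. Of the 10 named genes that passed, 5 did so under all alternatives (the 4 cold and drought genes and ALDH10A8), and 7 of the 25 others passed under at least 1. The nearest 6 genes shared 2 with the main list for STZ and 0 for ORA47 by Pearson's r, and 1 and 0 by the deviations from genotype means.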

Other observations

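Genes were also ranked by how closely their deviations from the genotype means followed those of STZ and ORA47, a measure added after the data were seen that does not use the difference between genotypes. For STZ, the search covered 1194 probe sets, STZ included, that name 1 gene and have an SD within genotypes of at least 0.5 times that of STZ. The 6 nearest were AT4G27280, AT1G35210, AT4G20860, AT1G05575, AT1G65490 and UGT76E12, a UDP-glycosyltransferase, with r from 0.94 to 0.98. Of these, 2 were lower in p53 seedlings, 1 was higher and 3 did not pass, against 8.84% lower and 6.55% higher of all probe sets. The search kept only genes of larger SD, and the share called among those is not given here. With the replicate block 4 of the 6 nearest were lower and 2 higher. With the methods' t-test or without WT replicate 3 it was 0 and 0. Without WT replicate 1 or 2 or p53 replicate 1 it was 1 and 0. AT4G20860 had values of -0.69, -1.04 and -0.27 on the WT arrays and 0.27, 0.45 and 1.43 on the p53 arrays, so its arrays stood in the order of STZ within each genotype while it rose by 1.38 (standard error 0.33, adjusted p = 0.0346 from limma, range over the alternatives 0.00744 to 0.154). That call was lost without WT replicate 1, 2 or 3, without p53 replicate 1 and by the methods' t-test. UGT76E12 had a difference of 1.08 (adjusted p = 0.0790). Of the 2 that were lower, AT4G27280 was also nearest to STZ by the distance that uses the genotype difference, so its call is no separate support. Its adjusted p rose up to 0.0994 and was above 0.05 by the methods' t-test and without WT replicate 3. AT1G65490 fell by 1.19 (adjusted p = 0.0367, range 0.00221 to 0.156, above 0.05 by the methods' t-test and when any array other than p53 3 was left out).

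For ORA47 the same search covered 1664 probe sets. The 6 nearest were AT1G66180, AR781, AT2G27500, AT3G05320, AT4G00670 and AT2G01300, with r from 0.92 to 0.99. Of these, 3 passed the test as lower and 3 missed it, against the same 8.84% of all probe sets. Here too the share called among the probe sets searched is not given. When WT array 1, WT array 3 or p53 array 1 was left out, only AR781 passed, and with the methods' t-test 0 did. The adjusted p of AT1G66180 was up to 0.134 over the alternatives, and it was above 0.05 also without WT replicate 2. That of AT4G00670 was up to 0.114. AR781 fell by 1.82 (standard error 0.25, adjusted p = 0.00440 from limma, range 0.00052 to 0.0571, above 0.05 by the methods' t-test alone). No gene was among the 6 nearest of both STZ and ORA47.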
